A study of Mus musculus with 16 samples.

Results

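The MYC family and the MAX network were followed across 16 bulk mouse small cell lung tumors. The 8 genes were taken by their symbols from the expression table, as Myc, Mycl, Mycn, Max, Mxi1, Mxd4, Mnt and Mga, and all 8 were found among 24016 genes. MYC, MYCL and MYCN are transcription factors that bind DNA only as partners of MAX, at the E-box CACGTG, and drive genes of ribosome production, metabolism and growth. MXI1, MXD4 and MNT compete for MAX and bring corepressors to the same kind of site, and MGA pairs with MAX inside a Polycomb complex called PRC1.6. In human small cell lung cancer MYCL, MYC or MYCN is amplified in some tumors, and MAX itself is lost in others.

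The tumors fall into 8 labelled sgKdm5a RPP and 8 labelled sgControl RPP. All were raised in B6;129 H11-LSL-Cas9 mice, whose Cas9 needs Cre, and which received an adenovirus through the trachea at 2 to 4 months of age. The labels do not spell out RPP; in this model it stands for guides against Rb1, Trp53 and Rbl2. On that reading both groups had the same 3 tumor suppressors targeted, and they differ in a guide against Kdm5a, a histone H3K4 demethylase, or a control guide. The labels used here name no cell type in which Cre is confined, and the sequenced samples were whole pieces of tumor, which hold stroma as well as tumor cells.

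Each library is 1 tumor by the labels, which number tumors and do not say whether each came from its own mouse. The values are FPKM (fragments per kilobase of transcript, scaled for library size), so levels of different genes can be set side by side. The library of sgControl-labelled tumor 1 stood apart: its median over the 13123 tested genes was 2.38 FPKM, against 10.0 to 12.3 in the other 15. Kdm5a RNA went against the labels, at 13.0 ± 3.10 FPKM in sgKdm5a-labelled tumors and 6.83 ± 1.64 FPKM in sgControl-labelled tumors (SD, n = 8 each), with no overlap (two-sided exact permutation p = 0.000155, the smallest this design allows). That lack of overlap held on unscaled values. After median scaling the exact permutation p was 0.00886, above that smallest value, so the groups then overlapped. On unscaled values the limma adjusted p over all genes was 0.852. A guide need not lower RNA, and the files do not tell whether labels or columns were exchanged, which would turn every signed difference below. Groups are therefore named by label. All 14 neuroendocrine markers, among them Chga and Syp, passed the filter on low values.

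Max, Mxd4 and Mnt carry the E-box near their own start, and the matches are printed because this is the sequence the whole network reads. In RefSeq promoters of GRCm38.p6 (250 bases before to 50 after a start), found for 7 of the 8 genes (all but Myc), CACGTG occurred in Max, Mxd4 and Mnt. The motif reads the same on both strands and no other motif was searched. Across all promoters 2187 of 27025 genes held it (8.09%). Capitals mark the motif, and each line runs 5′ to 3′ on the gene's strand.
Max, chr12:76962234-76962263 (minus strand): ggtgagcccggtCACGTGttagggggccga
Mxd4, chr5:34187912-34187941 (minus strand): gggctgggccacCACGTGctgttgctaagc
Mnt, chr11:74830789-74830818 (plus strand): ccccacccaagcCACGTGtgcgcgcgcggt
The same window of Mlx, which encodes the MAX-like partner of a parallel network, held one as well.
Mlx, chr11:101087238-101087267 (plus strand): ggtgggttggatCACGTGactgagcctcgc
Windows without a match say only that these letters are not there, and a match is not a measured binding site.

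By RNA, Mycl was the most abundant MYC gene of these tumors. It had the highest FPKM of the 3 in 16 of 16 tumors, and its median of 59.2 FPKM lay at the 89.1 percentile of tested genes. Myc, at a median of 4.38 FPKM, lay at the 25.0 percentile, and Mycn, at 1.76 FPKM, at the 11.3 percentile. Myc exceeded Mycn in 13 tumors, 6 of 8 sgKdm5a-labelled and 7 of 8 sgControl-labelled. The exceptions were sgKdm5a-labelled tumors 6 and 7 and sgControl-labelled tumor 7.

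Among all 8 genes the medians over 16 tumors ran in the order Mycl, Mxd4 (41.1 FPKM), Max (27.6), Mxi1 (18.2), Mnt (8.70), Mga (8.43), Myc and Mycn. Mycl exceeded Mxd4 in only 9 of 16 tumors and Mnt exceeded Mga in 6, so neither pair is separated beyond its spread. The other neighbours in the order kept their rank in 13 to 15 of 16 tumors. Mxd4 and Mxi1, both partners of MAX that oppose MYC, stood above Myc and Mycn in these medians.

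**Figure D1:**
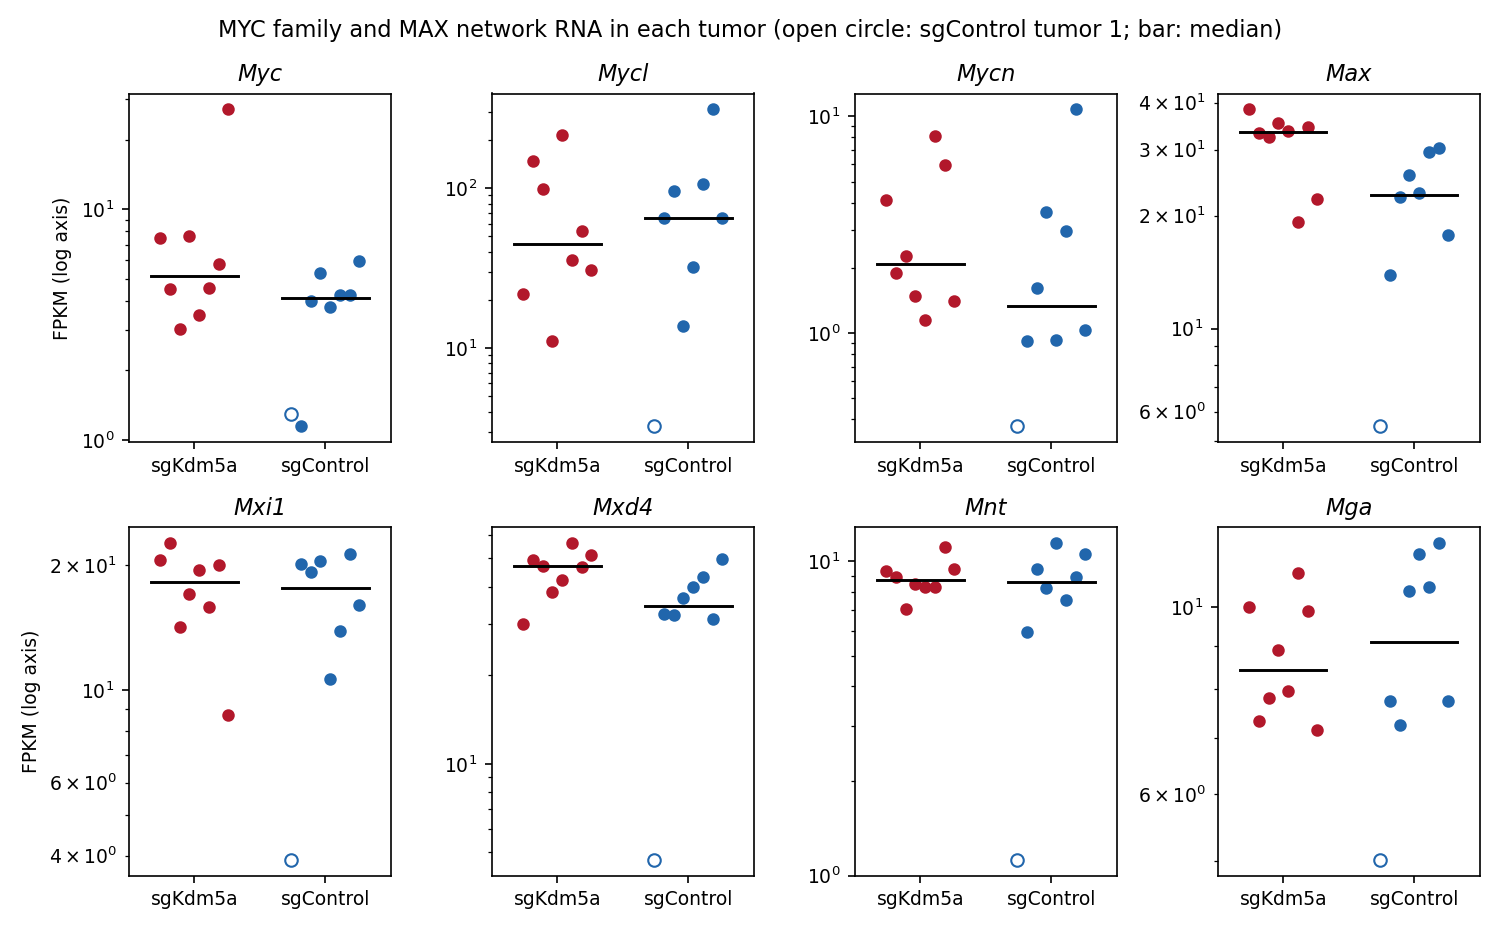
FPKM of the 8 genes in each tumor on log axes, sgKdm5a-labelled left and sgControl-labelled right; points are tumors in number order, bars are medians, and the open circle is sgControl-labelled tumor 1. Mycl spans 3.24 to 311 FPKM, while Mga spans 5.02 to 11.9.

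The 3 MYC genes had wider ranges between tumors than their partners did, and for Myc the width rested on its extreme tumors. With sgControl-labelled tumor 1 left out, the highest tumor exceeded the lowest 28.2-fold for Mycl, 23.6-fold for Myc and 11.7-fold for Mycn. The same ratio was 2.76 for Max, 2.61 for Mxi1, 1.92 for Mnt, 1.89 for Mxd4 and 1.66 for Mga. With all 16 tumors these ratios were 96.1 for Mycl, 23.6 for Myc, 29.0 for Mycn, 6.998 for Max, 5.803 for Mxi1, 10.2 for Mnt, 11.99 for Mxd4 and 2.37 for Mga. With libraries brought to the same median, the SD within groups was 1.48 on the log2 scale for Mycl, 0.81 for Mycn and 0.72 for Myc. It was 0.25 to 0.40 for the other 5. With sgControl-labelled tumor 1 left out, Myc ran from 1.14 FPKM in sgControl-labelled tumor 2 to 27.1 FPKM in sgKdm5a-labelled tumor 8. The tumors between them held 3.01 to 7.65 FPKM. Both extreme tumors also enter the SD of Myc.

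Mycl, the family member that neuroendocrine lung tumors often amplify, ranged from 11.04 to 214 FPKM in sgKdm5a-labelled tumors (median 44.7) and from 3.24 to 311 FPKM in sgControl-labelled tumors (median 64.8). The sgKdm5a-labelled tumors 2, 3 and 5 held 148, 98.6 and 214 FPKM, and the sgControl-labelled tumors 3, 6 and 7 held 96.1, 106 and 311 FPKM. High and low tumors were found under both labels, and the groups overlapped almost wholly. Mycl averaged 76.8 ± 72.0 FPKM in sgKdm5a-labelled and 86.4 ± 97.8 FPKM in sgControl-labelled tumors (SD, n = 8 each). The log2 difference, 0.12 (SE 0.77, limma adjusted p = 0.973), has a 95% interval of -1.50 to 1.73 and turned to -0.38 without sgControl-labelled tumor 1 and to -0.11 after median scaling.

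Myc ranged from 3.01 to 27.1 FPKM in sgKdm5a-labelled tumors (median 5.15) and from 1.14 to 5.95 FPKM in sgControl-labelled tumors (median 4.10). The 27.1 FPKM of sgKdm5a-labelled tumor 8 stood alone, since the next tumor held 7.65 FPKM. In all, 3 of 8 sgKdm5a-labelled tumors lay above every sgControl-labelled one and the rest overlapped with them. Myc averaged 7.94 ± 7.91 FPKM in sgKdm5a-labelled and 3.74 ± 1.72 FPKM in sgControl-labelled tumors (SD, n = 8 each). The log2 difference of 0.72 (SE 0.35) did not pass the threshold of 0.05 (limma adjusted p = 0.852), nor did an exact permutation test of Myc alone (p = 0.0758, and 0.176 after median scaling). Without sgKdm5a-labelled tumor 8 the log2 difference was 0.44.

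Mycn, which marks a smaller set of human tumors, ranged from 1.15 to 8.15 FPKM in sgKdm5a-labelled tumors (median 2.08) and from 0.371 to 10.8 FPKM in sgControl-labelled tumors (median 1.33). The high tumors were sgKdm5a-labelled 6 and 7, with 8.15 and 5.96 FPKM, and sgControl-labelled 7. Of the sgControl-labelled tumors 4 of 8, tumor 1 among them, lay below every sgKdm5a-labelled one. Above the sgControl-labelled median lay 7 of 8 sgKdm5a-labelled tumors, and 0 lay above the highest sgControl-labelled tumor. The log2 difference was 0.34 (SE 0.39, limma adjusted p = 0.861). Single tumors moved it, to 0.16 without sgKdm5a-labelled tumor 6, 0.22 without sgKdm5a-labelled tumor 7, 0.19 without sgControl-labelled tumor 1 and 0.63 without sgControl-labelled tumor 7.

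**Figure D2:**
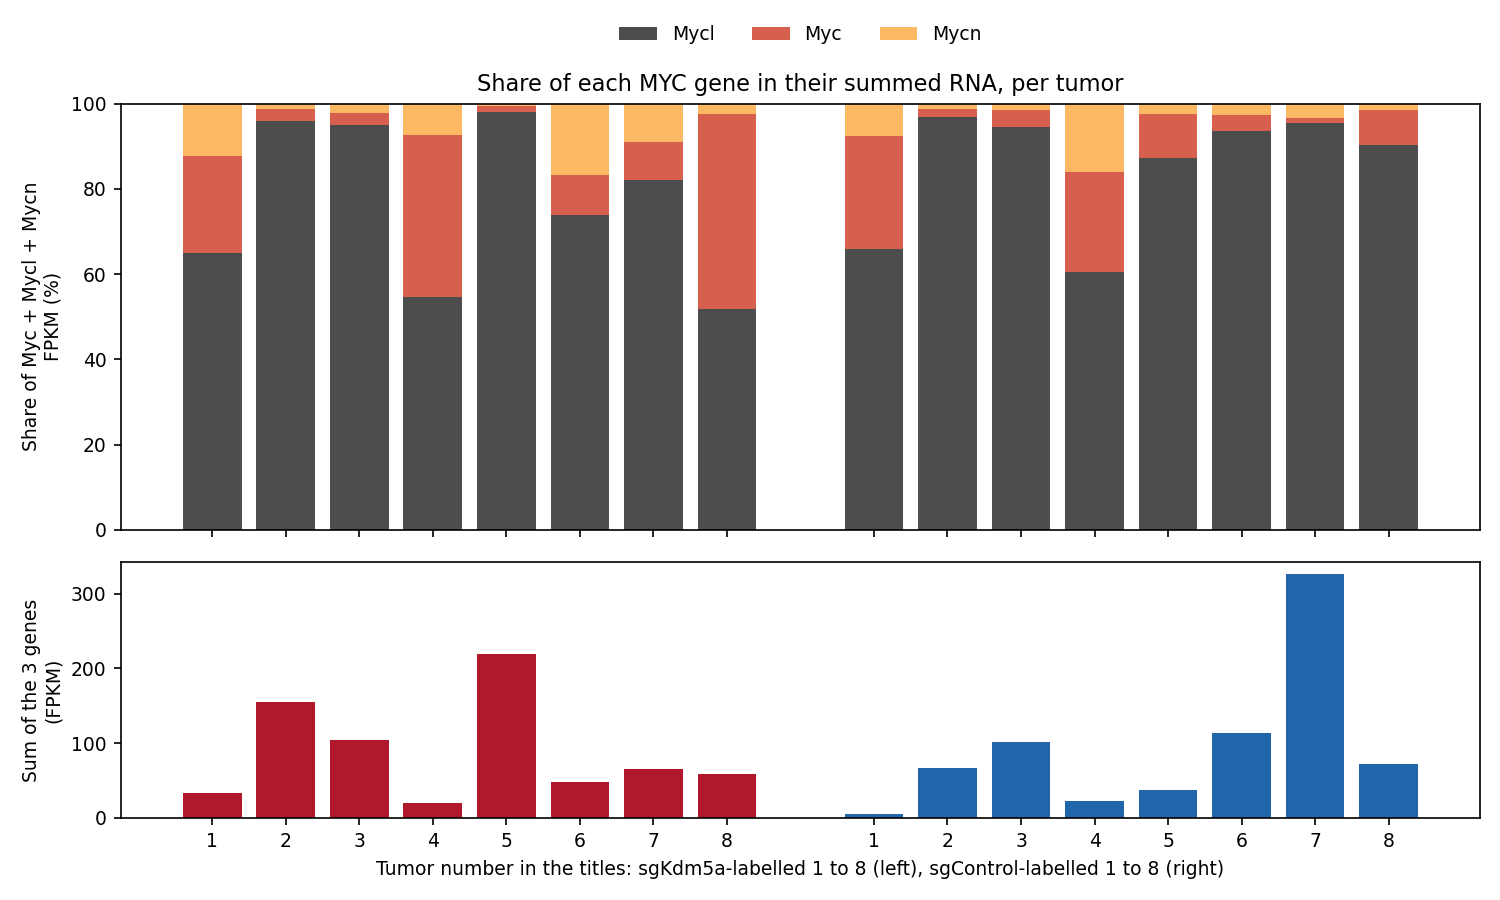
Upper: share of Mycl, Myc and Mycn in their summed FPKM, in percent, for each tumor; lower: the sum in FPKM. Bars are single tumors, sgKdm5a-labelled left and sgControl-labelled right, and Mycl is the largest share in every one, from 51.8% to 97.9%.

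As a share of the family's summed FPKM, Mycl made up 77.0 ± 18.6% in sgKdm5a-labelled and 85.5 ± 14.2% in sgControl-labelled tumors (SD, n = 8 each). Myc made up 16.5 ± 17.1% in sgKdm5a-labelled and 9.90 ± 9.82% in sgControl-labelled tumors, and Mycn 6.50 ± 5.95% in sgKdm5a-labelled and 4.56 ± 5.05% in sgControl-labelled tumors. Myc came closest to Mycl in sgKdm5a-labelled tumor 8, the tumor highest in Myc, where the ratio of Mycl to Myc was 1.13, and in sgKdm5a-labelled tumor 4, low in Mycl, where it was 1.44. At the other end it was 61.8 in sgKdm5a-labelled tumor 5 and 73.6 in sgControl-labelled tumor 7. The mean log2 ratio of Myc to Mycl was -3.06 ± 2.18 in sgKdm5a-labelled and -3.81 ± 1.85 in sgControl-labelled tumors, a difference within the spread (two-sided exact permutation p = 0.460).

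The summed FPKM of the 4 antagonists (Mxi1, Mxd4, Mnt and Mga) over that of the 3 MYC genes ranged from 0.355 to 3.61 in sgKdm5a-labelled and from 0.225 to 3.36 in sgControl-labelled tumors. The lowest ratios were those of the tumors highest in Mycl, sgKdm5a-labelled 5 and sgControl-labelled 7. Max over the same sum ranged from 0.153 to 1.75 in sgKdm5a-labelled and from 0.0928 to 1.14 in sgControl-labelled tumors. Both ratios contain Mycl in the denominator, so their order is not a separate result.

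Max, the obligate partner of the family, ranged from 19.3 to 38.4 FPKM in sgKdm5a-labelled tumors (median 33.4) and from 5.49 to 30.2 FPKM in sgControl-labelled tumors (median 22.6). Of the sgKdm5a-labelled tumors 6 of 8 lay above every sgControl-labelled one, and tumors 6 and 8, with 19.3 and 22.1 FPKM, lay within their range. Max averaged 31.1 ± 6.71 FPKM in sgKdm5a-labelled and 21.0 ± 8.34 FPKM in sgControl-labelled tumors (SD, n = 8 each).

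The log2 difference of Max was 0.65 (SE 0.31, 95% interval 0.01 to 1.28) and did not pass the threshold over all genes (limma adjusted p = 0.852). A two-sided exact permutation test of Max alone gave p = 0.0242, and p = 0.0454 after median scaling and p = 0.0485 without sgControl-labelled tumor 1, unadjusted for the 8 genes tested in this way. The difference then shrank to 0.40 and 0.42 on the log2 scale. Among tumors numbered 190 to 238 alone it was 0.49 (limma adjusted p = 0.995, 4 sgKdm5a-labelled and 7 sgControl-labelled tumors). In bulk tumors, fewer cells with a gene and less of its RNA per cell cannot be told apart.

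Mxd4 ranged from 29.9 to 56.5 FPKM in sgKdm5a-labelled tumors (median 47.0) and from 4.71 to 49.8 FPKM in sgControl-labelled tumors (median 34.5). The lowest value was that of sgControl-labelled tumor 1, and the next sgControl-labelled tumor held 31.2 FPKM. In 7 of 8 sgKdm5a-labelled tumors Mxd4 lay above the sgControl-labelled median, although only 2 lay above their highest. It averaged 45.2 ± 8.25 FPKM in sgKdm5a-labelled and 33.8 ± 13.4 FPKM in sgControl-labelled tumors (SD, n = 8 each). The log2 difference was 0.59 (SE 0.36, limma adjusted p = 0.852), and 0.24 without sgControl-labelled tumor 1. The exact permutation p of Mxd4 alone was 0.05004, 0.0424 after median scaling and 0.1001 without that tumor.

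The other antagonists differed little. Mxi1, an MXD-family repressor, averaged 17.3 ± 4.43 FPKM in sgKdm5a-labelled and 15.7 ± 6.04 FPKM in sgControl-labelled tumors (log2 difference 0.22, which turned to -0.02 after median scaling; limma adjusted p = 0.879). Mnt, the antagonist that is found in nearly all cells, averaged 8.87 ± 1.19 FPKM in sgKdm5a-labelled and 7.91 ± 3.24 FPKM in sgControl-labelled tumors (log2 difference 0.29, and 0.01 without sgControl-labelled tumor 1; limma adjusted p = 0.856). Mga averaged 8.75 ± 1.41 FPKM in sgKdm5a-labelled and 9.03 ± 2.44 FPKM in sgControl-labelled tumors (log2 difference -0.01, 95% interval -0.48 to 0.45, limma adjusted p = 0.993). Each of these 3 has both groups over nearly the same range once sgControl-labelled tumor 1 is set aside.

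**Figure D3:**
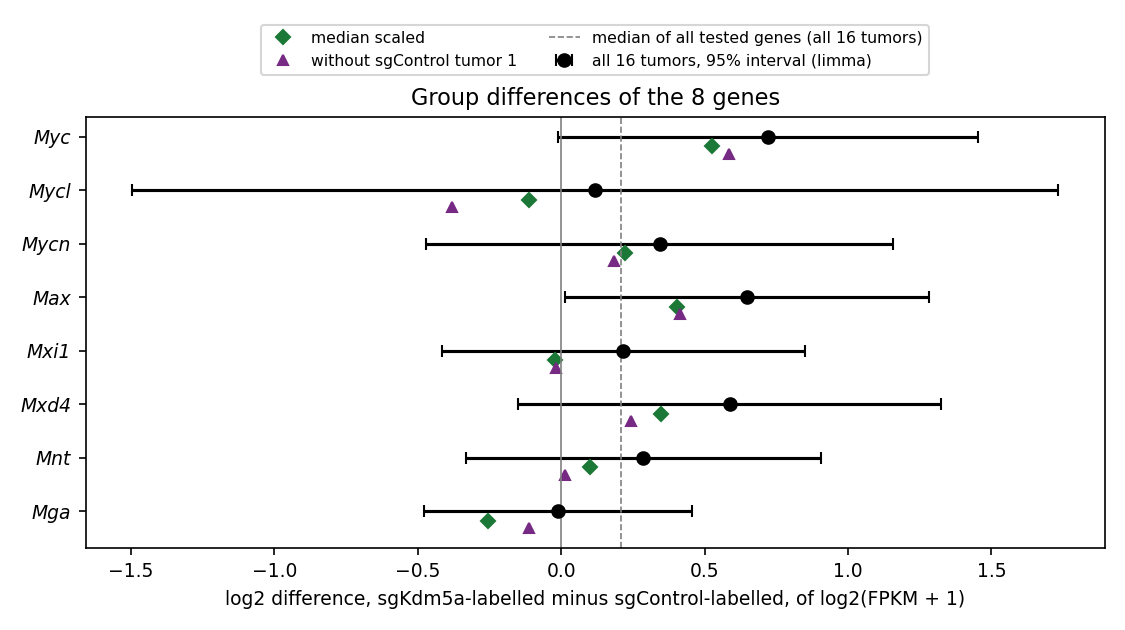
Difference of each gene in log2(FPKM + 1), sgKdm5a-labelled minus sgControl-labelled; black points with 95% intervals are from limma on 16 tumors, diamonds after median scaling, triangles without sgControl-labelled tumor 1, and the dashed line is the median of all tested genes, 0.21. Only the interval of Max stays above 0, from 0.01 to 1.28, before adjustment.

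By limma over the whole table, 0 of the 8 genes passed an adjusted p of 0.05 in either direction. The background was as low: 0.00762% of tested genes were called higher, the single gene Nell1, and 0% lower. At an unadjusted p under 0.05, 1 of the 8 (Max) was higher and 0 were lower, against 3.72% of all tested genes higher and 0.701% lower. The median of all tested genes was itself shifted by 0.21 on the log2 scale, and by -0.01 without sgControl-labelled tumor 1. Relative to that shift Myc differed by 0.51, Max by 0.44, Mxd4 by 0.38, Mycn by 0.13, Mnt by 0.08, Mxi1 by 0.01, Mycl by -0.09 and Mga by -0.22.

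Lists of cell type markers had 0 genes called in either direction, but most of their medians lay above the 0.21 of all genes. The median log2 difference was 1.24 over 9 tested fibroblast markers, 0.66 over 10 endothelial, 0.56 over 10 alveolar epithelium, 0.50 over 10 macrophage, 0.46 over 14 neuroendocrine and 0.45 over 4 T and B cell markers. Of these lists 8 of 9, 9 of 10, 6 of 10, 9 of 10, 11 of 14 and 4 of 4 genes lay above 0.21. The 20 mitosis genes had a median of -0.08, with 18 below 0.21. The fibroblast list (10 genes, Col1a1 and Dcn among them) summed to 47.3 to 1379 FPKM in sgKdm5a-labelled and 19.4 to 711 FPKM in sgControl-labelled tumors. The endothelial list summed to 73.5 to 217 FPKM in sgKdm5a-labelled and 46.5 to 249 FPKM in sgControl-labelled tumors, and the macrophage list to 373 to 1472 FPKM in sgKdm5a-labelled and 43.1 to 2297 FPKM in sgControl-labelled tumors. Their part in the values of Max, Myc and Mxd4 was not tested.

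Mycl RNA did not vary alone: several genes beside it on the chromosome varied with it. Of the 10 protein-coding genes on each side of Mycl, 9 were tested, 8 had a Spearman rho above 0 with Mycl over 16 median-scaled tumors and 5 had a rho of at least 0.6, with a median of 0.60. Of all tested genes 6.66% reached 0.6 with Mycl. These are descriptions over the same 16 libraries, and gene order was taken from RefSeq.

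Trit1, which encodes a transferase that modifies transfer RNA, is the next gene on one side and had a rho of 0.81 with Mycl, reached by 0.69% of tested genes. Trit1 ranged from 7.20 to 37.7 FPKM in sgKdm5a-labelled tumors (median 10.3) and from 4.76 to 32.3 FPKM in sgControl-labelled tumors (median 13.7). Its highest tumors were sgKdm5a-labelled 2, 3 and 5 and sgControl-labelled 3, 6 and 7, the same 6 tumors that were highest in Mycl. Without sgControl-labelled tumor 1 the rho was 0.90.

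Other neighbours were graded. Cap1, an actin regulator, had a rho of 0.69 with Mycl. Bmp8b, a secreted growth factor of the BMP family, had 0.60, and Mfsd2a, a lipid transporter next to Mycl on the other side, had 0.52. Ppt1, a lysosomal thioesterase just beyond Cap1, had only 0.11. Farther out, and outside the rule for named neighbours, Ppie had 0.77, Pabpc4 0.69, Rlf 0.51 and Heyl, a NOTCH effector, -0.25. In sgControl-labelled tumor 7, the highest in Mycl, the 9 neighbours stood at a median of 0.86 on the log2 scale above their own medians, and in sgKdm5a-labelled tumor 5 at 1.05. DNA copy number is not analysed here.

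**Figure D4:**
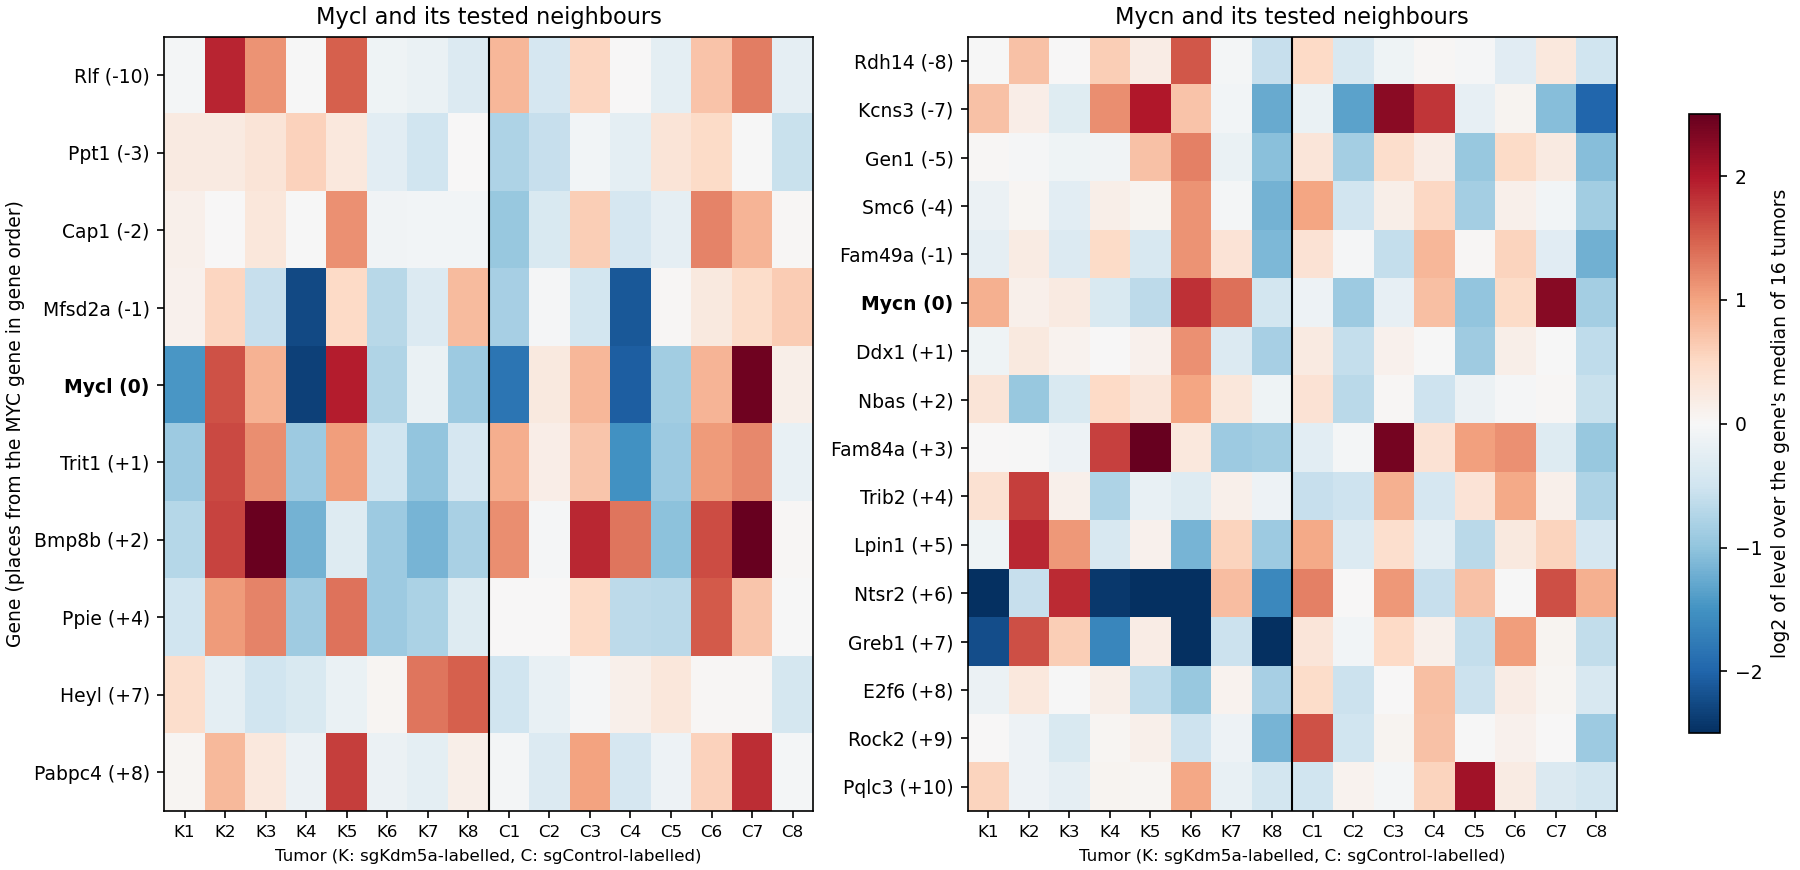
Level of Mycl and of Mycn and of their tested protein-coding neighbours, in gene order from top to bottom, by tumor (K sgKdm5a-labelled, left; C sgControl-labelled, right). Colour is log2 of the median-scaled level over the gene's own median, with 0.02 added and colours ended at 2.5; the columns high in Mycl are high in Trit1, and tumor K6 is high in Mycn, Ddx1 and Nbas.

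Mycn had a single tumor of this kind. In sgKdm5a-labelled tumor 6, with 8.15 FPKM of Mycn, 6 of the 15 tested neighbours of Mycn had their highest level of all tumors, and the 15 stood at a median of 0.81 on the log2 scale above their own medians. The same tumor was highest for 0 of 11 tested neighbours of Myc and 0 of 9 of Mycl. How many of all tested genes were highest in it was not counted. Ddx1, an RNA helicase gene that borders MYCN and is often gained with it in human neuroblastoma, held 152 FPKM there, against 75.3 in the next tumor. Nbas, a gene of vesicle transport beyond Ddx1, held 11.96 FPKM against 8.05, and Fam49a (Cyria), on the other side, 12.5 against 9.76. Rdh14, Gen1 and Smc6, which were singled out after their values were seen, were the other 3, with 39.7, 10.8 and 81.3 FPKM against 19.7, 6.81 and 52.0 in the next tumor.

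The run did not extend to every neighbour or tumor. Fam84a (Lratd1), 3 places from Mycn, was highest in sgKdm5a-labelled tumor 5 and had a rho of -0.16 with Mycn. In sgControl-labelled tumor 7, where Mycn was highest at 10.8 FPKM, the same 15 neighbours stood at 0.03 on the log2 scale from their medians. In sgKdm5a-labelled tumor 7, with 5.96 FPKM of Mycn, they stood at -0.05. Over 16 tumors the median rho of the 15 with Mycn was 0.33, the range was -0.16 to 0.49, and 0 of the 15 reached 0.6, against 0.465% of all tested genes.

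Myc showed no such pattern over its coding neighbours as a set. In sgKdm5a-labelled tumor 8, where Myc stood 2.48 above its median on the log2 scale, its 11 tested neighbours stood at 0.10. Their median rho with Myc over all tumors was -0.06, from -0.27 to 0.32. The highest, 0.32, was Fam84b (Lratd2), 2 places from Myc, which was highest in the same tumor at 49.2 FPKM, against 29.3 in the next. Trib1, 4 places from Myc and singled out after its values were seen, held 26.7 FPKM there and 26.2 in sgControl-labelled tumor 3. After median scaling it was highest in the latter. Without sgControl-labelled tumor 1 the rhos with Myc ran from -0.44 (Nsmce2) to 0.47 (Fam84b), with Trib1 at 0.45.

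Pvt1, a long non-coding RNA gene beside Myc that is often gained with MYC in human cancers, was looked at after its values were seen. It held 20.3 FPKM in sgKdm5a-labelled tumor 8. In the other tumors it reached at most 3.66 FPKM under the sgKdm5a label and 4.49 FPKM under the sgControl label. The tumor with the highest Myc had the highest Pvt1, but over all 16 tumors the rho of the 2 genes was 0.01, and -0.20 without that tumor.

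Myc and Mycl tended to opposite levels on median-scaled values, without passing correction. After median scaling, their Spearman rho over 16 tumors was -0.64 (permutation p = 0.00870, Benjamini-Hochberg adjusted p = 0.244 over 28 pairs of the 8 genes). Pearson's r was -0.39 (permutation p = 0.130, adjusted p = 0.728), and -0.64 without the 2 tumors farthest from the median of Myc. On unscaled values the r was -0.06 (permutation p = 0.826, adjusted p = 0.826). The rho was -0.34 on unscaled values, -0.57 among tumors numbered 190 to 238 (n = 11) and -0.60 without sgControl-labelled tumor 1. Within the labels it was -0.76 among sgKdm5a-labelled and -0.43 among sgControl-labelled tumors.

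None of the 28 pairs passed by either coefficient on median-scaled values. The strongest positive rho, 0.49 between Mycn and Mga, had a permutation p of 0.0558 (adjusted p = 0.781) and an r of 0.22 (permutation p = 0.407, adjusted p = 0.793) that became 0.12 without the 2 tumors farthest in Mycn. On unscaled values their r was 0.72 (permutation p = 0.00162, adjusted p = 0.0454), the one pair to pass among the scaled, unscaled, 190 to 238 and left-out settings, with a rho of 0.60 (adjusted p = 0.419). Without sgControl-labelled tumor 1 the scaled r was 0.63 (permutation p = 0.0120, adjusted p = 0.335). Mxd4 and Mga had the strongest Pearson's r, -0.64 (permutation p = 0.00737, adjusted p = 0.206), which became -0.32 without the 2 tumors farthest in Mxd4, sgControl-labelled 1 and sgKdm5a-labelled 2. Their rho was -0.40 (permutation p = 0.127, adjusted p = 0.845).

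The family was also set against 8 factors of lung tumor state, Nfib, Insm1 and Hes1 among them, which gave 24 pairs, of which 0 passed. Mycl with Nfib, a factor often gained in these mouse tumors, had a rho of 0.45 (permutation p = 0.0856, adjusted p = 0.794) and an r of 0.51 (permutation p = 0.0425, adjusted p = 0.381), which became 0.17 without the 2 tumors farthest in Mycl. In other settings this r was larger. It was 0.68 unscaled (permutation p = 0.00370, adjusted p = 0.0888) and 0.67 without sgControl-labelled tumor 1 (permutation p = 0.00571, adjusted p = 0.137). Among tumors numbered 190 to 238 it was 0.56 (permutation p = 0.0683, adjusted p = 0.410). Mycl with Hes1, a NOTCH effector, had a rho of -0.42 (permutation p = 0.105, adjusted p = 0.794) and an r of -0.51 (permutation p = 0.0476, adjusted p = 0.381), or -0.45 without those 2 tumors. Mycn with Insm1, a neuroendocrine factor, had a rho of 0.46 (permutation p = 0.0763, adjusted p = 0.794) and an r of 0.37 (permutation p = 0.154, adjusted p = 0.840), or 0.48 without the 2 tumors farthest in Mycn. The largest r with Myc, 0.57 with Insm1 (permutation p = 0.0188, adjusted p = 0.381), became 0.09 without the 2 tumors farthest in Myc, and their rho was 0.35 (permutation p = 0.187, adjusted p = 0.794). The r of Myc with Insm1 was 0.66 unscaled, 0.72 among tumors numbered 190 to 238 and 0.58 without sgControl-labelled tumor 1. None of these passed after adjustment.

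The genes that most resembled each family member were ranked by rho over 16 median-scaled tumors among 13122 others. For Mycl they were Txlna (0.93), Eif4h (0.92), Hsp90ab1 (0.91), Ap4m1 (0.90) and Sf3a1 (0.90), which include a translation initiation factor, a chaperone and a splicing factor. For Myc they were Rrbp1 (0.86), Dos (0.85), Maff (0.85), Armcx6 (0.83) and Peg10 (0.81), among them a ribosome-binding membrane protein and a small MAF transcription factor. For Mycn they were Clcn5 (0.82), Fev (0.78), Fzd3 (0.75), Tnrc18 (0.72) and Mast1 (0.72). FEV is the transcription factor of serotonin neurons and FZD3 a WNT receptor. These are the extremes of a ranking and carry no test.

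Genes that MYC proteins are known to drive went mostly with Mycl. Of 40 such target genes, all tested, 38 had a rho above 0 with Mycl, with a median of 0.59, against 52.1% of all tested genes and a median of 0.02. With Myc 6 of 40 had a rho above 0 (median -0.34, against 47.0% of all genes). With Mycn 15 of 40 did (median -0.15, against 47.2%). The counts with Mycl were 36 to 38 in each group alone, among tumors numbered 190 to 238, unscaled and without sgControl-labelled tumor 1. Those with Mycn were 6 among sgKdm5a-labelled and 24 among sgControl-labelled tumors, and those with Myc were 5 to 8 in the scaled alternatives. On unscaled values 30 of 40 were above 0 with Mycn, against 77.5% of all tested genes, and 15 of 40 with Myc, against 70.7%.

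Named targets show the spread. Wdr43, a factor of ribosome assembly, had a rho of 0.67 with Mycl and -0.41 with Myc, and Pes1, of the same process, 0.61 and -0.25. Rrs1, another ribosome assembly factor, had 0.08 with Mycl and 0.13 with Myc. Singled out after their values were seen, the highest with Mycl were Fbl and Nolc1 (0.88 each), which act in the nucleolus, and the 2 below 0 were Ldha, an enzyme of glycolysis (-0.29), and Ccnd2, a cyclin (-0.24). Ldha was the highest with Myc, at 0.50.

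**Figure D5:**
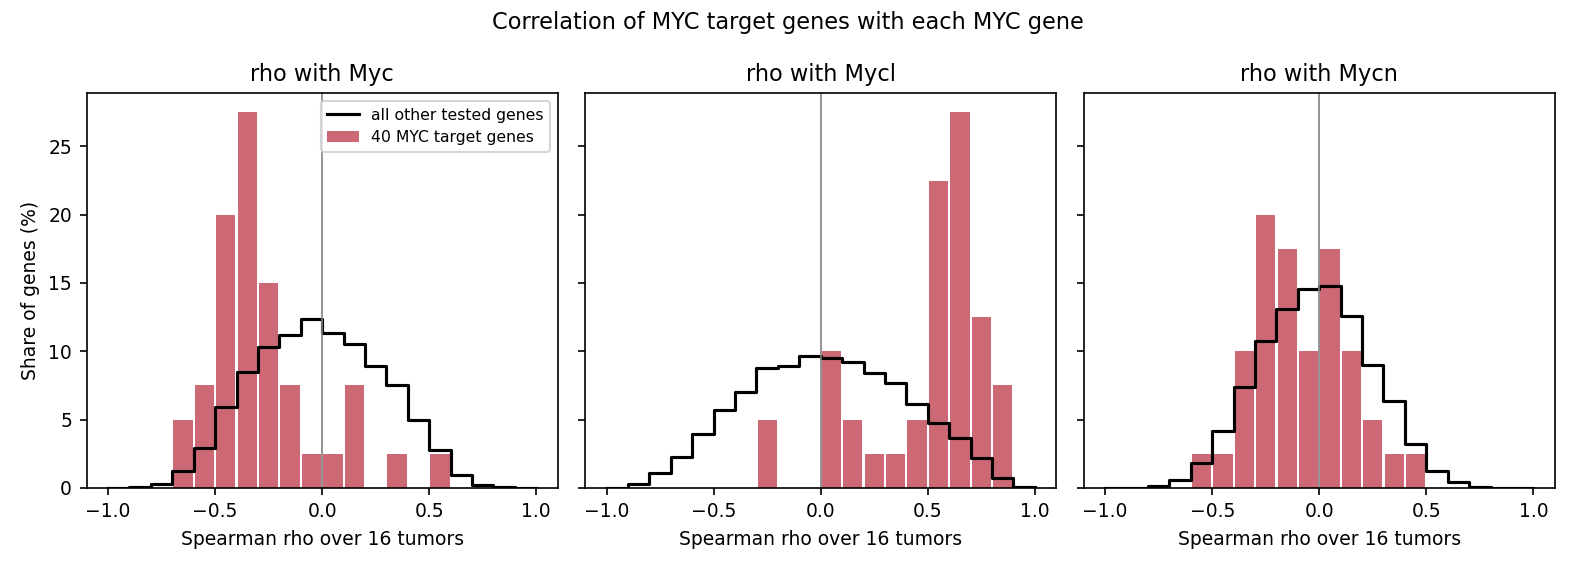
Spearman rho over 16 median-scaled tumors with Myc, Mycl and Mycn, in bins of 0.1; bars are the 40 MYC target genes and the line all other tested genes, both as percent of genes. With Mycl 38 of 40 targets lie above 0, with Myc 6 and with Mycn 15.

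Markers of cell types and of division were counted in the same way over all 16 tumors. With Mycl 0 of 10 endothelial, 1 of 9 fibroblast, 4 of 10 macrophage and 4 of 14 neuroendocrine markers had a rho above 0, and 16 of 20 mitosis genes did. With Myc it was 10 of 10 endothelial, 9 of 9 fibroblast, 9 of 10 macrophage and 11 of 14 neuroendocrine markers, and 1 of 20 mitosis genes. Most of these counts turned under the sgControl label, but not those of mitosis genes with Mycl or neuroendocrine markers with Myc. Among sgKdm5a-labelled tumors alone, 10 of 10 endothelial, 9 of 9 fibroblast and 7 of 10 macrophage markers and 1 of 20 mitosis genes were above 0 with Myc, and 0 of 10, 0 of 9 and 2 of 10 markers and 18 of 20 mitosis genes with Mycl. Of the neuroendocrine markers in those tumors, 10 of 14 were above 0 with Myc and 3 of 14 with Mycl. Among sgControl-labelled tumors alone, 2 of 10 endothelial, 1 of 9 fibroblast, 2 of 10 macrophage and 8 of 14 neuroendocrine markers were above 0 with Myc. So were 16 of 20 mitosis genes. With Mycl the same tumors gave 6 of 10 endothelial, 5 of 9 fibroblast, 7 of 10 macrophage and 8 of 14 neuroendocrine markers, and 13 of 20 mitosis genes. Of all tested genes 48.0% were above 0 with Myc and 51.0% with Mycl in the sgControl-labelled tumors. In tumors numbered 190 to 238, 9 of 10 macrophage and 5 of 9 fibroblast markers were above 0 with Mycl, and 4 of 10 macrophage markers with Myc. The mitosis genes summed to 794 to 1612 FPKM in sgKdm5a-labelled and 401 to 2050 FPKM in sgControl-labelled tumors, and the neuroendocrine markers to 4071 to 13151 FPKM in sgKdm5a-labelled and 799 to 14170 FPKM in sgControl-labelled tumors. The part of these genes in the relation of MYC targets to Mycl was not tested.

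Between the labels the 40 targets did not move as a list: 0 were called in either direction, and their median log2 difference was 0.20, against 0.21 over all tested genes, with 18 of 40 above that. Pes1 averaged 32.6 ± 6.74 FPKM in sgKdm5a-labelled and 24.5 ± 9.19 FPKM in sgControl-labelled tumors (log2 difference 0.54, limma adjusted p = 0.852). Rrs1 averaged 14.2 ± 2.01 FPKM in sgKdm5a-labelled and 11.3 ± 4.07 FPKM in sgControl-labelled tumors. Wdr43 averaged 22.2 ± 3.72 FPKM in sgKdm5a-labelled and 19.2 ± 6.74 FPKM in sgControl-labelled tumors, and neither passed the threshold (limma adjusted p = 0.852). Of the 33 targets with a RefSeq promoter 10 held CACGTG (30.3%), against 8.09% of all genes. Pes1, with a rho of 0.61 with Mycl, and Ldha, with -0.29, both carry it, and their windows are shown with the motif in capitals.
Pes1, chr11:3963965-3963994 (plus strand): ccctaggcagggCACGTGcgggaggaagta
Ldha, chr7:46845744-46845773 (plus strand): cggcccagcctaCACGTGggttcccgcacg

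The rest of the MAX network together with the MLX network, whose partners sense glucose products, came to 5 genes, all tested, with 0 called and a median log2 difference of 0.24. Mlx averaged 32.9 ± 9.65 FPKM in sgKdm5a-labelled and 22.6 ± 10.6 FPKM in sgControl-labelled tumors (log2 difference 0.70, limma adjusted p = 0.852). Mlxip averaged 8.22 ± 1.99 FPKM in sgKdm5a-labelled and 6.42 ± 2.12 FPKM in sgControl-labelled tumors. Mlxipl, which encodes the glucose-responsive ChREBP, averaged 3.39 ± 1.37 FPKM in sgKdm5a-labelled and 4.95 ± 1.90 FPKM in sgControl-labelled tumors (log2 difference -0.43, limma adjusted p = 0.852). Mxd3, a further MAX partner, averaged 36.2 ± 9.83 FPKM in sgKdm5a-labelled and 42.0 ± 17.6 FPKM in sgControl-labelled tumors. Mxd1, the founding member of the MXD proteins, averaged 7.75 ± 1.58 FPKM in sgKdm5a-labelled and 6.95 ± 2.55 FPKM in sgControl-labelled tumors.

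Cofactors and regulators of MYC turnover (25 genes) had 0 called and a median log2 difference of 0.14, with 11 above the 0.21 of all genes. The 3 of lowest p were Cdk9, the kinase that releases paused polymerase, Fbxo32, a ubiquitin ligase subunit, and Aurka, a mitotic kinase that stabilises MYCN. Aurka averaged 47.1 ± 9.49 FPKM in sgKdm5a-labelled and 34.8 ± 17.8 FPKM in sgControl-labelled tumors (log2 difference 0.70). Cdk9 averaged 20.4 ± 4.52 FPKM in sgKdm5a-labelled and 14.9 ± 4.41 FPKM in sgControl-labelled tumors. Fbxo32 averaged 10.8 ± 5.44 FPKM in sgKdm5a-labelled and 7.23 ± 4.33 FPKM in sgControl-labelled tumors, and for each of the 3 the limma adjusted p was 0.852.

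Corepressors used by MXD proteins, MXI1 and MNT (17 genes) had 0 called and a median of 0.10, with 3 above that of all genes. These 3 were Sin3b, the scaffold that MXD proteins dock on, Brms1 and Rbbp4, both subunits of its histone deacetylase complex. Sin3b averaged 82.6 ± 34.0 FPKM in sgKdm5a-labelled and 57.6 ± 16.3 FPKM in sgControl-labelled tumors. Brms1 averaged 22.7 ± 5.12 FPKM in sgKdm5a-labelled and 16.4 ± 5.24 FPKM in sgControl-labelled tumors. Rbbp4 averaged 158 ± 78.2 FPKM in sgKdm5a-labelled and 123 ± 52.5 FPKM in sgControl-labelled tumors, and each of the 3 missed the threshold (limma adjusted p = 0.852).

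MGA's partners in PRC1.6 (14 genes) had 0 called and a median of 0.18, with 5 above that of all genes. L3mbtl2, a reader of the complex, averaged 22.5 ± 4.05 FPKM in sgKdm5a-labelled and 17.4 ± 6.58 FPKM in sgControl-labelled tumors. Pcgf6, the subunit that defines the complex, averaged 13.2 ± 4.31 FPKM in sgKdm5a-labelled and 10.6 ± 4.19 FPKM in sgControl-labelled tumors. Rnf2, its ubiquitin ligase, averaged 14.7 ± 3.70 FPKM in sgKdm5a-labelled and 11.3 ± 4.52 FPKM in sgControl-labelled tumors (limma adjusted p = 0.852 for each of the 3).

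Of 15 germline genes that PRC1.6 is known to keep silent, 2 passed the filter on low values, and the mean of the other 13 did not exceed 1 FPKM. Tdrkh averaged 14.99 ± 3.66 FPKM in sgKdm5a-labelled and 16.4 ± 6.94 FPKM in sgControl-labelled tumors, and Zcwpw1 averaged 20.5 ± 6.57 FPKM in sgKdm5a-labelled and 27.5 ± 16.3 FPKM in sgControl-labelled tumors. Neither was called, and Hormad1 was listed at 0 in all tumors. The promoters of this list held CACGTG in 10 of 15 genes (66.7%), against 8.09% of all genes, and Stk31 and Ddx4, of sperm and germ cells, are shown as examples.
Stk31, chr6:49395472-49395501 (plus strand): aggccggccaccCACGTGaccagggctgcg
Ddx4, chr13:112652322-112652351 (minus strand): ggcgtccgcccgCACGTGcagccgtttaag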

How the data were processed

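RNA from 16 tumors had been purified on columns and sequenced from stranded total RNA libraries, per the labels' protocols. Build mm9, Cufflinks 2.2.1 and STAR 2.5.1b are listed, without roles, per the submitters' processing notes, and the annotation is not given in the sources used here. The values were deposited by the authors in a sheet named for counts and are read here as FPKM, because they are not whole numbers and, after multiplication by transcript length (GENCODE vM21, 94.1% of symbols matched), their sums lie at 1.09 to 1.19 of what FPKM should give for 15 libraries, and at 0.368 for sgControl-labelled tumor 1. Read depth is unknown, so no counting interval is given. The mapping of columns to tumors rests on the source names.

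Of 24043 rows, 27 with names turned into dates were left out. Genes with at least 1 FPKM in 8 of 16 libraries (13123) were fitted on log2(FPKM + 1), which understates changes of low genes, with limma 3.58.1 in R 4.3.3 (trended, robust variance, Benjamini-Hochberg adjustment, threshold 0.05). The fit was tested on simulated data. Single genes were also tested by two-sided exact permutation over 12870 assignments. Correlations used median-scaled log2(FPKM + 1) and 100000 permutations. Tumors numbered 190 to 238 (4 sgKdm5a-labelled and 7 sgControl-labelled) and 839 to 893 (4 sgKdm5a-labelled and 1 sgControl-labelled) were treated as possible batches, and the second holds too few sgControl-labelled tumors for its own value. No 2 libraries were identical among 120 pairs.

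Genes and lists were chosen with earlier results of these data known. The text names the 8 genes, Kdm5a, the 5 genes most like each of Myc, Mycl and Mycn, the 3 of lowest p in each pathway list and the tested neighbours within 3 places, and says where it goes beyond that. Values of 1 factor of lung tumor state are not reported here. Planned tests of shares are left out, since a share is a score over the genes.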

Additional observations from a re-analysis of the deposited data

Results flagged for a closer look

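Dixon's test of the highest or lowest tumor against its nearest was run on 22 sets of 8 tumors. Chance marks about 1 set in 20 where values are normally distributed. These values are FPKM and shares without logs, several of them skewed, and the shares depend on each other. The chance rate here is therefore not known. It marked 5 values. Myc held 27.1 FPKM in sgKdm5a-labelled tumor 8, with 7.65 in the next tumor of that label. Mycl held 311 FPKM in sgControl-labelled tumor 7, with 106 in the next, and Mycn held 10.8 FPKM in that tumor, with 3.62 in the next. Mxd4 held 4.71 FPKM in sgControl-labelled tumor 1, with 31.2 in the nearest. The share of Mycn in the family's FPKM was 16.02% in sgControl-labelled tumor 4, with 7.57% in the next.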

How the results depend on the processing

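Over 24 alternatives for each of the 8 genes (192 fits in all) 0 passed the threshold, and the lowest limma adjusted p was 0.257. The sign of 5 genes (Myc, Mycn, Max, Mxd4 and Mnt) did not turn in any of them. Mycl turned to -0.11 with median scaling, -0.16 with quantile normalization and -1.14 with sample weights, and leaving out 1 tumor at a time gave -0.38 to 0.50. Mxi1 turned to -0.021 with median scaling, -0.020 with quantile normalization and -0.011 with sample weights, and leaving out 1 tumor gave -0.018 (without sgControl-labelled tumor 1) to 0.34. Mga turned to 0.045 in tumors numbered 190 to 238, and leaving out 1 tumor gave -0.11 to 0.046. The count of genes called higher, 1, became 0 with median scaling, quantile normalization, no filter or a pseudocount of 0.1, 2 with sample weights, 6 in tumors numbered 190 to 238 and 0 to 2 when 1 tumor was left out. The count called lower, 0, became 3 with sample weights and 0 to 1 when 1 tumor was left out. MYC targets with a rho above 0 numbered 15 of 40 with Myc unscaled (70.7% of all genes), and with Mycn 30 of 40 unscaled (77.5% of all genes), 6 in sgKdm5a-labelled and 24 in sgControl-labelled tumors alone. The cause of these changes was not tested. Unscaled, the Pearson correlation of Mycn and Mga passed (r = 0.72, adjusted p = 0.0454). Leaving out 1 tumor took the share difference of Myc, 6.59 percentage points, to 2.40 (without sgKdm5a-labelled tumor 8) to 8.95, that of Mycl, -8.52, to -12.1 (without sgControl-labelled tumor 4) to -4.93 (without sgKdm5a-labelled tumor 8), and that of Mycn, 1.94, to 0.458 (without sgKdm5a-labelled tumor 6) to 3.57 (without sgControl-labelled tumor 4). Leaving out sgKdm5a-labelled tumor 8 took Myc to a log2 difference of 0.44.

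The tumor numbers 1 to 8 in the titles did not pair the samples: 2 of 8 same-numbered pairs correlated above 0.1, and 1 of 8 tumors was closest to its own number. With the replicate block 1 gene was called higher and 0 lower, and Max kept a log2 difference of 0.65 (limma adjusted p = 0.891). Without read depth, low values such as those of Mycn have no counting error.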
